A study of Arabidopsis thaliana with 6 samples.

Results

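Plant mitochondria keep a small genome of their own. It encodes core subunits of the respiratory chain, whose NADH dehydrogenase (complex I), cytochrome bc1 complex (complex III), cytochrome c oxidase (complex IV) and ATP synthase (complex V) are each completed by subunits made from nuclear genes. In flowering plants it also encodes proteins that attach haem to cytochromes of the c type, the intron maturase matR and a set of open reading frames. Its transcripts are matured by splicing, in part between separately transcribed pieces (trans-splicing), and by C-to-U editing. In the Columbia nuclear genome a large copy of the mitochondrial genome lies in chromosome 2, so signal from a mitochondrial transcript and from its nuclear copy cannot always be told apart. Glycerol-3-phosphate (G3P) itself meets the respiratory chain through a mitochondrial G3P dehydrogenase.

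The genes described here are those of the mitochondrial genome that the platform annotation names by the symbol nad, cox, cob, ccb, orf, atp with a number, or matR, taking only probe sets that name a single gene. These were 17 of the 16129 probe sets in the deposited table, and they stood for 13 genes. Complex I had 11 probe sets for 7 genes, since nad1 had 4 and nad5 had 2. Complex IV had 2 (cox1 and cox2), cytochrome c maturation had 3 (ccb206, ccb382 and ccb452) and the reading frames had 1 (orfX). No single-gene probe set carried a cob, atp or matR symbol, so complexes III and V are not described. A further 5 probe sets named a gene of these classes together with a nuclear locus of chromosome 2 and were left out. All 13 genes were matched to mitochondrial entries in RefSeq (TAIR10.1 assembly), whose names are ccmB for ccb206, ccmFN1 for ccb382, ccmFC for ccb452 and mttB for orfX.

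The study asked how G3P delivered to one leaf changes transcripts elsewhere in the plant. Wild-type Arabidopsis thaliana of the Columbia ecotype, labelled 3 to 4 weeks old, had a primary leaf infiltrated with leaf exudate in MgCl2, without G3P (mock, 3 arrays) or with G3P added (G3P, 3 arrays). Both groups thus received exudate and MgCl2, and no group was left untreated. Distal leaves were taken after 24 h, and each array held RNA from a separate group of plants. The whole leaf was profiled, so fewer cells of a type and less RNA per cell cannot be told apart.

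Signals are given as log2(signal + 16), a scale whose lowest value is 4 and on which changes of dim probe sets are understated. Median signals of the arrays ran from 291 to 338. Of 12 leaf markers 5 were measured, that is, had a probe set paired with that gene alone, with group means of 13.52 to 14.68. The root gene PYK10, the 1 measured of 7 root markers, had 5.70 ± 0.99 on the mock arrays and 5.88 ± 0.85 with G3P (SD, n = 3 each). The flower and vasculature lists had 0 measured members, and 1 of 4 guard cell markers was measured, with a difference of 0.04. Levels of different probe sets cannot be compared, so these values do not test the tissue label. One array, G3P replicate 3, stood apart. It correlated at 0.842 to 0.913 with the others across probe sets, a description in which probe sets are no replicates, where the other 5 correlated at 0.930 to 0.961 among themselves. On it 1223 probe sets (7.58%) exceeded or undercut all 5 others by more than 1 log2 unit, against 42 to 186 on each of the others, and 2 of the 17 mitochondrial probe sets did so. On any array 3 of the 17 were displaced in this way, against 10.8% of all probe sets. Results that rest on this array are therefore given with and without it.

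For none of the 13 mitochondrion-encoded genes described here did the difference between G3P and mock leaves exceed the spread between arrays by the test. Of the 17 probe sets 0 passed in limma with Benjamini-Hochberg adjustment across the whole table, and their adjusted p-values ran from 0.912 to 0.997. The background was 0% of the 16129 probe sets at the adjusted threshold of 0.05. At an unadjusted p under 0.05 limma called 0 of 17, where 3.08% of all probe sets were called, and the groups failed to overlap for 0 of 17, where 8.64% of all did so. The exact rank-sum test also called 0, but with 3 against 3 its smallest two-sided p is 0.1. Differences were positive for 12 and negative for 5, with a median of 0.10, against a median of -0.03 and 46.5% positive over all probe sets. Without G3P replicate 3 the median was 0.05, with 10 positive. The 5 probe sets left out for naming a second locus differed by -0.86 to 0.56, with limma adjusted p-values of 0.912 to 0.958. Groups failed to overlap for 1 of these 5, which names cox3 (0.22, or 0.07 without G3P replicate 3). They were barely separated there, as the highest mock value was 6.996 and the lowest G3P value 6.997.

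**Figure D1:**
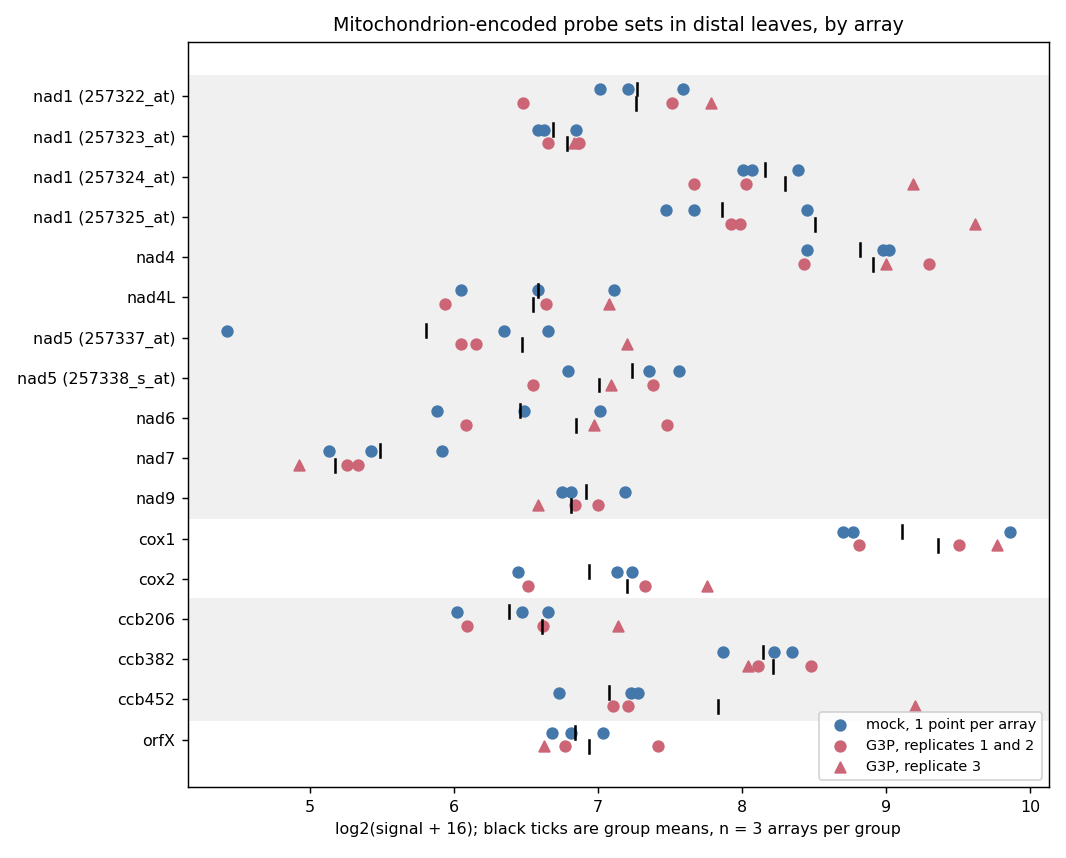
Values of log2(signal + 16) on each of the 6 arrays for the 17 mitochondrion-encoded probe sets, ordered by complex, with mock arrays in blue above and G3P arrays in red below each line, and group means as black ticks. The groups overlap for all 17, and the triangle of G3P replicate 3 lies far to the right for ccb452 (9.20) and for 1 nad1 probe set (9.62).

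The precision of these values was limited. For 7 of 17 probe sets the 95% interval stayed inside a 2-fold change both ways, where 52.6% of all probe sets met that limit, and for the other 10 a change of this size remains possible. In terms of brightness 15 of the 17 lay below the median probe set of the table, and of the probe sets below that median 35.9% met the limit. The median residual SD of the members was 0.53, against 0.37 over all probe sets and 0.44 over those below the median brightness. Brightness differs between probe sets for reasons other than transcript amount, so no gene's level is set against that of another.

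Complex I takes electrons from NADH and passes them to ubiquinone while moving protons across the inner membrane. Its mitochondrion-encoded subunits had 6 positive and 5 negative differences, with a median of 0.09, or 0.0063 without G3P replicate 3. The gene nad1, which encodes a membrane subunit at the junction with the peripheral arm and is assembled by trans-splicing, was read by 4 probe sets. The first, 257322_at, had 7.59, 7.01 and 7.21 on mock replicates 1 to 3 and 6.48, 7.52 and 7.79 on G3P replicates 1 to 3. The second, 257323_at, had 6.58, 6.85 and 6.63 on the mock arrays and 6.87, 6.66 and 6.84 with G3P. The latter was the steadiest of the 17, with a range of 0.28 over all 6 arrays.

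The third nad1 probe set, 257324_at, had 8.07, 8.01 and 8.39 on the mock arrays and 8.03, 7.67 and 9.19 with G3P. The fourth, 257325_at, had 7.47, 7.67 and 8.45 on the mock arrays and 7.99, 7.93 and 9.62 with G3P. G3P replicate 3 was the highest array for 257322_at, 257324_at and 257325_at, by 1.17 log2 units above all others for the last, and all 4 nad1 probe sets were above their own mean on it. The differences of the 4 probe sets were -0.01 ± 0.38, 0.10 ± 0.26, 0.14 ± 0.39 and 0.65 ± 0.49 (SE), in that order, with limma adjusted p-values of 0.997, 0.958, 0.961 and 0.912. Without G3P replicate 3 they were -0.27, 0.07, -0.31 and 0.09, so the large difference of 257325_at rested on that array. No source used here says which stretch of the transcript each probe set reads.

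The gene nad5 encodes one of the large antiporter-like membrane subunits and is trans-spliced as well. Its probe set 257337_at had 4.43, 6.35 and 6.65 on the mock arrays and 6.05, 6.16 and 7.20 with G3P, and 257338_s_at had 7.36, 6.79 and 7.56 on the mock arrays and 7.38, 6.55 and 7.09 with G3P. The low value of 257337_at on mock replicate 1 came from a signal of 5.52, near the lowest value of the scale, and lay at -1.63 log2 units from the lowest of the other arrays. The differences were 0.66 ± 0.63 and -0.23 ± 0.33 (SE), opposite in sign, with limma adjusted p-values of 0.912 and 0.928. Without G3P replicate 3 the first was 0.30, and without mock replicate 1 it was -0.03, so its direction depended on 1 dim reading.

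The genes nad4 and nad4L encode further membrane subunits of the proton-pumping arm. For nad4 the mock arrays had 9.02, 8.45 and 8.98 and the G3P arrays 9.30, 8.43 and 9.00. For nad4L they had 6.05, 6.58 and 7.11 in mock and 6.64, 5.94 and 7.08 in G3P. Both pairs of groups covered nearly the same range, and the differences were 0.09 ± 0.29 for nad4 (95% interval -0.59 to 0.77) and -0.03 ± 0.41 for nad4L (-0.99 to 0.93). They were 0.05 and -0.29 without G3P replicate 3. The gene nad6, another membrane subunit, had 5.88, 6.49 and 7.02 on the mock arrays and 7.48, 6.09 and 6.97 with G3P and differed by 0.38 ± 0.45. Its mock arrays alone spanned more than that, and the difference was 0.07 without G3P replicate 1 and 0.76 without G3P replicate 2.

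Subunits of the peripheral arm, which carries the electrons, were nad7 and nad9. The nad7 values were 5.13, 5.43 and 5.92 on the mock arrays and 5.26, 5.33 and 4.93 with G3P and differed by -0.32 ± 0.40 on a probe set with signals of only 14.4 to 44.4. For nad9 they were 7.19, 6.81 and 6.75 on the mock arrays and 7.00, 6.84 and 6.59 with G3P and differed by -0.11 ± 0.28. Of the 11 probe sets of complex I, nad7 had the most negative difference and kept its sign with each array left out (-0.50 to -0.11). Its limma adjusted p was 0.917 and that of nad9 was 0.958. The differences without G3P replicate 3 were -0.20 for nad7 and 0.0063 for nad9.

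**Figure D2:**
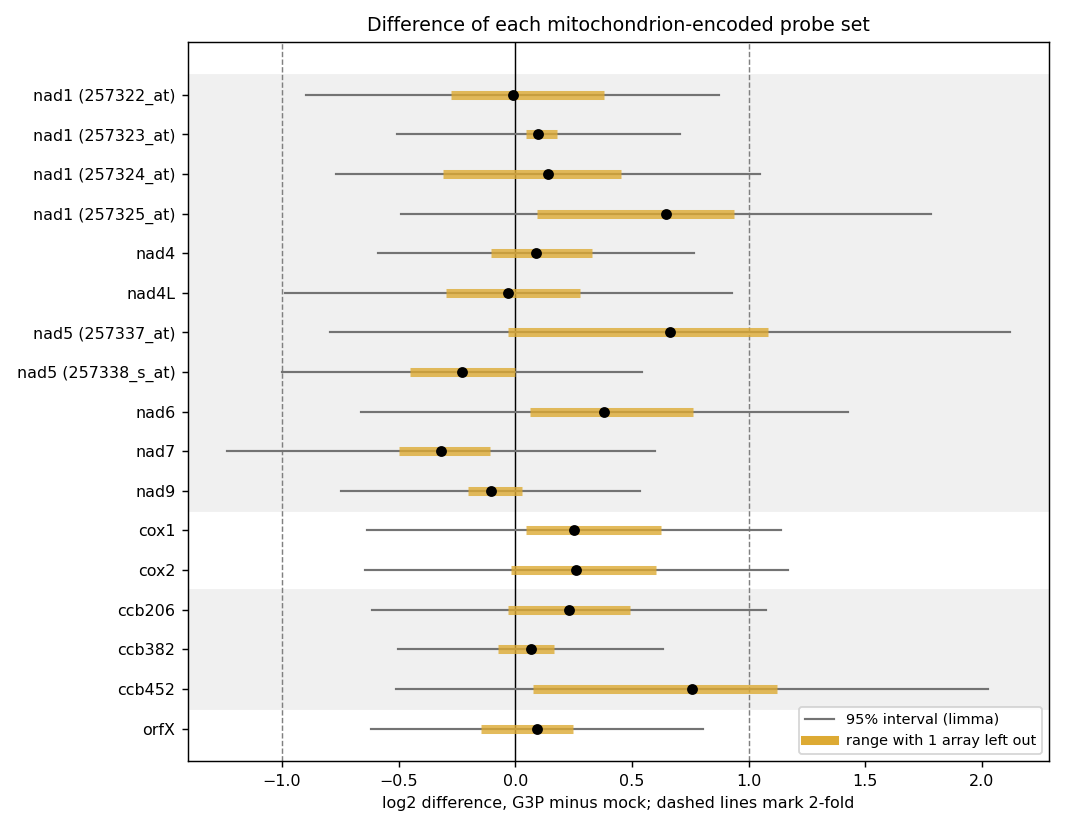
Log2 difference, G3P minus mock, of each mitochondrion-encoded probe set (black point), with its 95% interval from limma (grey line) and the range of the difference when each array was left out in turn (yellow bar). All 17 intervals cross 0, and 7 stay inside the dashed lines at 2-fold.

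Complex IV reduces oxygen to water with electrons from cytochrome c. The catalytic subunit gene cox1 had 8.77, 8.70 and 9.86 on the mock arrays and 9.51, 8.81 and 9.77 with G3P. The gene cox2, whose product receives the electrons of cytochrome c, had 6.45, 7.13 and 7.24 on the mock arrays and 7.33, 6.52 and 7.76 with G3P. In both genes mock replicate 3, G3P replicate 1 and G3P replicate 3 were the 3 highest arrays, which split each group. The differences were 0.25 ± 0.38 for cox1 and 0.26 ± 0.39 for cox2 (SE), with limma adjusted p-values of 0.933 and 0.931. Without G3P replicate 3 they were 0.05 and -0.02.

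Cytochrome c maturation proteins deliver and attach haem to apocytochromes in the mitochondrial intermembrane space. The gene ccb206 encodes a subunit of the ABC transporter of this system, and ccb382 and ccb452 encode parts of the haem lyase. The ccb206 probe set had 6.66, 6.48 and 6.03 on the mock arrays and 6.62, 6.09 and 7.14 with G3P. For ccb382 the values were 8.35, 8.22 and 7.87 on the mock arrays and 8.11, 8.48 and 8.05 with G3P, which overlapped throughout. For ccb452 they were 7.23, 6.73 and 7.28 on the mock arrays and 7.10, 7.21 and 9.20 with G3P.

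The ccb452 value of 9.20 was the most displaced single reading among the 17 probe sets, at 1.92 log2 units above the next array, a signal of 572 against 90.0 to 140 elsewhere. The other G3P arrays lay within the mock range. The difference of ccb452 was 0.76 ± 0.55 (SE, limma adjusted p = 0.912) and 0.07 without G3P replicate 3, while ccb206 had 0.23 ± 0.37 and ccb382 0.07 ± 0.25. Without that array ccb206 had -0.03 and ccb382 0.15. In the RefSeq table ccmFC (ccb452), nad4 and mttB (orfX) follow one another among the protein-coding genes of the mitochondrial genome. On G3P replicate 3 nad4 (9.00) lay within the range of the other arrays, and orfX (6.63) had its lowest value there. The other neighbouring pairs among the genes described here were cox2 and ccmB (ccb206), nad1 and cox1, and nad5 and nad7. Relative to their own means over all arrays, cox2 (0.69) and ccb206 (0.64) were both higher on G3P replicate 3. So were cox1 (0.53) and all nad1 probe sets (0.10 to 1.43). The nad5 probe sets had 1.06 and -0.03, and nad7 had -0.41. The order is by start position alone, and whether these genes are transcribed together was not tested.

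The reading frame orfX encodes a TatC-like protein of a membrane translocation system that moves folded proteins. Its mean was 6.84 ± 0.18 on the mock arrays and 6.94 ± 0.42 with G3P (SD, n = 3 each), and its difference was 0.09 ± 0.31 (SE, limma adjusted p = 0.968), with single arrays from 6.63 to 7.41. Its difference was 0.25 without G3P replicate 3. The suffix of the probe set marks it, with ccb452, nad6 and 257338_s_at of nad5, as one of 4 members whose probes match more than one transcript of the array design.

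The members also varied between arrays of one group. Each probe set was centred on its mean over the 6 arrays, and the median of the 17 deviations was -0.15, -0.08 and 0.16 on mock replicates 1, 2 and 3 and 0.12, -0.26 and 0.51 on G3P replicates 1, 2 and 3. Thus G3P replicates 2 and 3 stood on opposite sides, with 13 of 17 members below their own mean on replicate 2 and 12 of 17 above it on replicate 3. Above their own mean on G3P replicate 2 were 23.5% of members and 56.0% of all probe sets. On G3P replicate 3 these shares were 70.6% and 46.2%, with 43.2% of the dimmer 8064 probe sets. The 17 include 4 probe sets of nad1 and 2 of nad5, so they are not separate genes. The largest deviations on G3P replicate 3 were 1.74 for ccb452, 1.43 for 257325_at and 0.96 for 257324_at of nad1, and 1.06 for 257337_at of nad5. Not all members followed, and nad7 (-0.41), nad9 (-0.28) and orfX (-0.27) were lower there than their own means. G3P replicate 3 was the highest array for 7 of 17, against 24.5% of all probe sets.

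**Figure D3:**
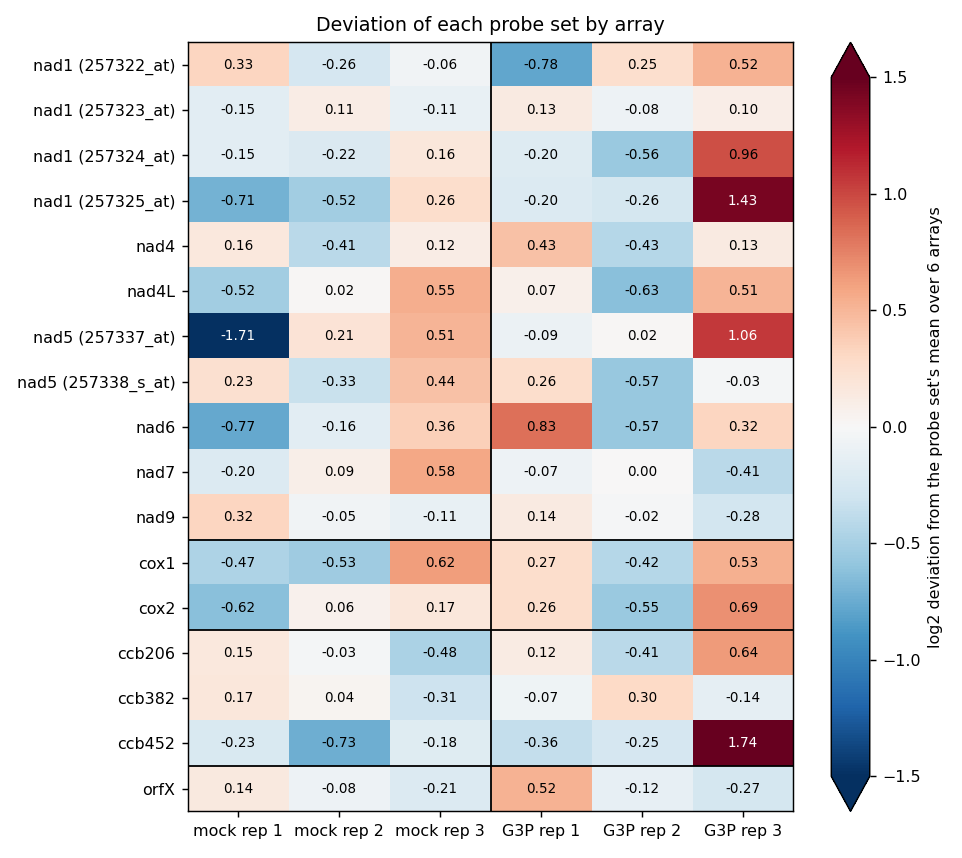
Deviation of each mitochondrion-encoded probe set, in log2 units, from its own mean over the 6 arrays, with rows grouped by complex and mock arrays left of the vertical line. The column of G3P replicate 3 holds the strongest positive values (1.74 for ccb452, 1.43 for nad1 257325_at) and the column of mock replicate 1 the strongest negative value (-1.71 for nad5 257337_at).

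Other gene groups did not have the same order of arrays, though no test of that difference was made. The 69 plastid-encoded probe sets had median deviations of 0.43 on G3P replicate 1 and -0.29 on G3P replicate 3. The 32 measured probe sets of the nuclear lists (respiration and mitochondrial RNA maturation) had median deviations between -0.07 and 0.10 on each array. On G3P replicate 3 the 5 measured leaf markers had a median deviation of -0.92. All 5 had negative differences between G3P and mock, with a median of -0.55 (and -0.08 without that array). In limma 0 of 5 passed at an adjusted or unadjusted p under 0.05, against 0% and 3.08% of all probe sets. The part of these markers in the mitochondrial values was not tested. The 8064 probe sets below the median brightness, to which most members belong, had -0.09 on that array. After quantile normalization the members' median there was 0.50, with 13 of 17 above their own mean, and that of the dim probe sets was 0.0036. The share of all probe sets above their own mean was not counted after that normalization.

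**Figure D4:**
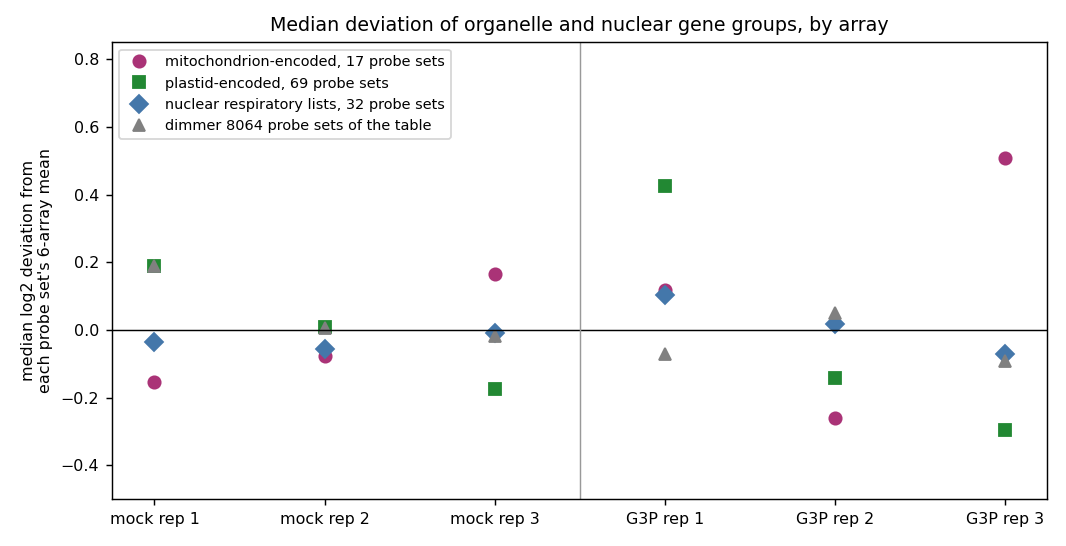
Median log2 deviation from each probe set's own mean over the 6 arrays, for the mitochondrion-encoded members (circles), plastid-encoded genes (squares), the nuclear respiratory lists (diamonds) and the 8064 dimmest probe sets (triangles). On G3P replicate 3 the mitochondrial median is 0.51 and the plastid median -0.29, and on G3P replicate 2 the mitochondrial median is -0.26.

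Nuclear genes of complexes I to V, of alternative respiration, and of mitochondrial RNA maturation with haem attachment were listed. The lists held 95 genes, of which 32 had a named probe set. Of these 0 passed the test after adjustment (limma, adjusted p from 0.912 to 0.998), 0 had an unadjusted p under 0.05 and 0 had groups that did not overlap. Over all probe sets these shares were 0%, 3.08% and 8.64%, so few of 32 would be called at the table's rate. The 32 probe sets had 17 positive and 15 negative differences, with a median of 0.03. They were measured more tightly than the mitochondrial genes, with a median residual SD of 0.32 and with intervals within 2-fold for 24 of 32. Over all probe sets the median residual SD was 0.37, and 52.6% had such intervals. The nuclear and mitochondrial probe sets were not matched for brightness, and 15 of the 17 members lay below the median of the table.

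In complex I, 1 of 5 measured nuclear genes had a positive difference, and the list's median was -0.17. GLDH, which makes ascorbate and is needed for complex I assembly, had 8.03 ± 0.41 on the mock arrays and 7.48 ± 0.66 with G3P (SD, n = 3 each), and differed by -0.55 ± 0.38 (SE), or by -0.22 without G3P replicate 3. AT5G11770 had -0.53 ± 0.37 and AT4G02580 -0.17 ± 0.19. In complex II, whose subunits come from nuclear genes, SDH1-1 (the flavoprotein) had 0.04 ± 0.36, and the iron-sulphur subunits SDH2-1 and SDH2-2 had 0.12 ± 0.19 and -0.16 ± 0.27. With G3P replicate 3 left out these were -0.14, 0.22 and 0.11.

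The list of complex III and cytochrome c had 5 of 8 positive differences and a median of 0.13, or 0.08 without G3P replicate 3. Cytochrome c is the soluble carrier between complexes III and IV and the product that the ccb genes help to mature. CYTC-2 had 8.90 ± 0.24 on the mock arrays and 9.41 ± 0.47 with G3P and differed by 0.51 ± 0.29 (SE), and CYTC-1 had 0.33 ± 0.21. Both kept a positive difference with each array left out (0.34 to 0.78 for CYTC-2 and 0.23 to 0.46 for CYTC-1). Neither passed the test (limma adjusted p = 0.912 for both). They were picked by their small p within the list, and 20 of the 32 nuclear probe sets changed direction with 1 array left out. AT1G51980 had 0.19 ± 0.25, and 0.03 without G3P replicate 3.

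In the nuclear complex IV list 6 of 8 differences were positive, with a median of 0.07. AT5G61310 had 8.46 ± 0.22 on the mock arrays and 8.97 ± 0.39 with G3P (SD, n = 3 each), and differed by 0.51 ± 0.27 (SE), while AT1G80230 had 0.27 ± 0.21 and AT5G57815 0.23 ± 0.25. These were 0.30, 0.15 and 0.30 without G3P replicate 3, and the median of the list was 0.14. Complex V had 2 measured nuclear genes, AT5G47030 with -0.08 ± 0.19 and AT1G51650 with 0.05 ± 0.26, which were -0.05 and 0.17 without that array.

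Alternative respiration bypasses the proton-pumping complexes. Of 14 such genes 3 were measured, all of them type II NAD(P)H dehydrogenases, which oxidize NADH or NADPH without pumping protons. NDB1 had a difference of -0.48 ± 0.33, NDC1 of -0.10 ± 0.28 and NDB2 of 0.41 ± 0.70. With G3P replicate 3 left out NDB1 had -0.30 and NDC1 0.06. On G3P replicate 3 NDB2 lay 1.61 log2 units above the other 5 arrays, and its difference was -0.49 without that array, its limma adjusted p being 0.938 with all arrays. The alternative oxidases, AOX1A among them, were listed but had no probe set paired with a single gene, so no values are given for them. Whether a probe set without a named gene reads them is not known. Of the 23 genes listed for mitochondrial RNA maturation and haem attachment 3 were measured. CCMH, a nuclear partner of the ccb proteins, had -0.05 ± 0.28, AT5G46920 had 0.02 ± 0.25 and AT1G74350 had -0.14 ± 0.45, and without G3P replicate 3 they had -0.16, -0.08 and 0.06.

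**Figure D5:**
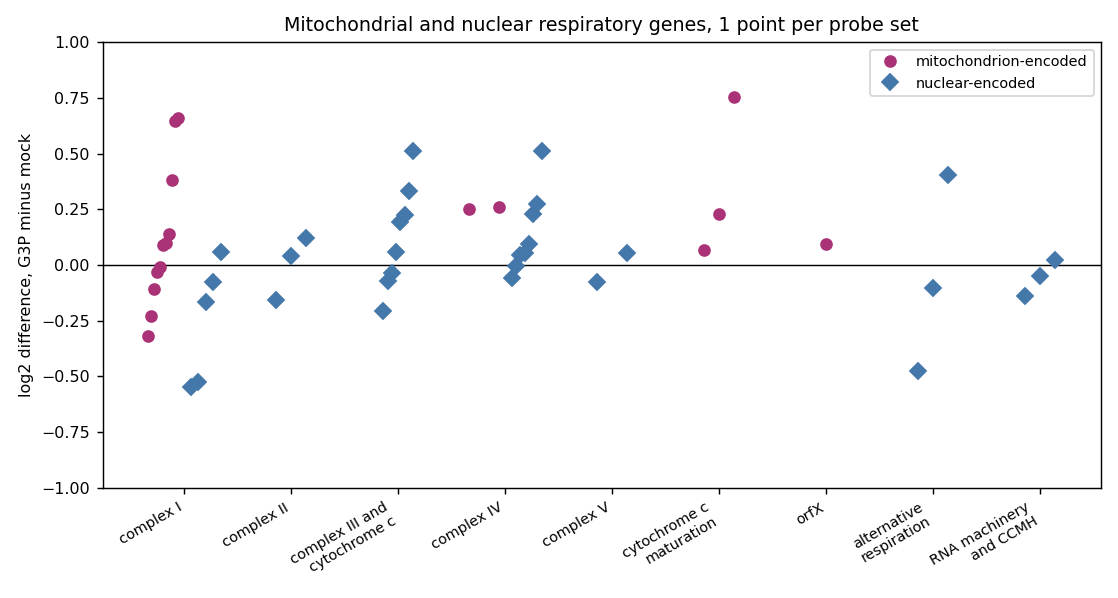
Log2 difference, G3P minus mock, of each measured probe set by complex or pathway, with mitochondrion-encoded members as circles and nuclear list members as diamonds. The mitochondrial values run from -0.32 to 0.76 and the nuclear ones from -0.55 to 0.51, on both sides of 0 in complex I.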

How the data were processed

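Distal-leaf RNA was hybridized to 6 Affymetrix ATH1 arrays, and the deposited table gives 1 intensity per probe set and array, unlogged. Expression Console 1.0 is named in the submitters' processing notes. No source used here says how the authors summarized and scaled the deposited intensities, or why 16129 probe sets are listed. The platform annotation paired 8950 probe sets with 1 gene, 339 with several and 6840 with none. Members were picked by case-sensitive symbol among the first kind. The members and gene lists were chosen with earlier results of these data known.

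Deposited values were not renormalized, and log2(signal + 16) was fitted in limma 3.58.1 under R 4.3.3, with group as the only term, a trended variance prior and all 6 arrays. P-values were adjusted by Benjamini-Hochberg across the whole table, with calls at 0.05. The rank-sum test that the design text names was run as an alternative. Nuclear lists were matched by locus and described by counts and medians. Members other than reading frames are all given with their values, and from each nuclear list up to 3 genes with the smallest p. Simulated data had 200 of 16129 probe sets changed. There limma found 14% of those changed by 1 log2 unit and 61% of those changed by 2, with 7.2 false calls a run. Simulated noise was independent between probe sets, and only upward changes were added, to probe sets drawn from the whole table. The rates therefore do not describe the members. The number of arrays limits the precision.

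Arrays were not paired in the fit. Same-numbered mock and G3P arrays, each taken as its deviation from the group mean, had correlations of 0.0061, -0.10 and 0.31 over probe sets, and no source says that the numbers mark shared plants.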

Additional observations from a re-analysis of the deposited data

How the results depend on the processing

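No probe set passed the adjusted threshold, among the members or in the whole table, in all 6 arrays, in 10 other limma fits, in the exact rank-sum test (which cannot pass with 3 against 3) or with any 1 array left out. The smallest adjusted p over the table was 0.242, and 0.114 with array quality weights. At an unadjusted p under 0.05 limma called 0 members under every alternative, while the table held 496 such probe sets, 716 with array quality weights, 233 without mock replicate 1, 282 without mock replicate 2 and 1196 without G3P replicate 2. With the replicate block the table held 685 and the members 0, with a median member difference of 0.099. The count of members with non-overlapping groups ranged from 0 to 2 with 1 array left out, where fewer arrays must be separated. The share over all probe sets was not counted with 1 array left out, so this count is not read as a result. The members' median difference ranged from 0.046 to 0.329 with 1 array left out and from 0.030 to 0.223 otherwise.

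Single directions were less stable, and 11 of 17 turned with 1 array left out. The differences then ranged from -0.297 to 0.276 for nad4L, -0.0722 to 0.167 for ccb382, -0.145 to 0.25 for orfX, -0.104 to 0.328 for nad4, -0.201 to 0.030 for nad9, -0.030 to 0.493 for ccb206, -0.017 to 0.605 for cox2, -0.273 to 0.379 for nad1 257322_at, -0.308 to 0.453 for nad1 257324_at, -0.029 to 1.08 for nad5 257337_at and -0.451 to 0.00046 for nad5 257338_s_at. After quantile normalization nad4L had 0.092, nad9 0.025 and nad1 257322_at 0.059. Centring on array medians gave nad4L 0.012 and nad1 257322_at 0.032, and a pseudocount of 64 gave nad1 257322_at 0.00889. Array quality weights gave cox2 -0.019, nad1 257322_at 0.00666 and nad1 257324_at -0.068. The log2 ratio of medians, without a pseudocount, was 0.071 for nad4L, -0.115 for ccb382, -0.049 for orfX, 0.037 for nad9, -0.028 for ccb452, 0.336 for nad1 257322_at, -0.044 for nad1 257324_at and -0.240 for nad5 257337_at. The causes were not tested. Without the dimmest 25% of probe sets 9 members remained and without the dimmest 50% only 2 (nad4 and cox1).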
